A study of Melianthus elongatus with 11 samples.

Results

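The black nectar of Melianthus minor, also called M. elongatus, comes from nectaries, the glands of the flower that release a sugar solution. Here the 3 libraries whose code starts with 1 (1-A, 1-B, 1-C) were compared with the 2 whose code starts with 0 (0-A, 0-B), chosen by their library codes out of 11 libraries. Both codes came from plants of this species grown outdoors in an arboretum, with no treatment named in the labels, and dissected nectaries first kept some neighbouring tissue that was trimmed away later. In such bulk tissue, fewer cells of a type and less RNA per cell cannot be told apart. Plant age, genotype and the meaning of a code were not stated in the labels. By its filed tissue, 1-A is mature leaf, as are 0-A and 0-B, while 1-B and 1-C are nectary before secretion, so tissue and code cross. It is not recorded whether replicates of a code were different plants, and the p-values therefore cover library-to-library spread alone, possibly technical.

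As background, a floral nectary is first built by dividing and expanding cells under regulators such as CRABS CLAW (CRC), a YABBY factor needed to form nectaries in Arabidopsis. In Arabidopsis it later makes sucrose with sucrose phosphate synthases and exports it through SWEET9, and the paired factors MYB21 and MYB24 act in flower maturation and nectar release under jasmonate. Iron-gall pigments, which the study's title names for this nectar, form when iron meets gallic acid derivatives. Gallic acid comes from the shikimate pathway, glucosyltransferases of the UGT84A group join such acids to glucose, and ferritins store iron inside plastids.

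Each value was a normalised read count for 1 contig, an assembled transcript sequence named by its closest Arabidopsis gene. Contigs at 10 or more in at least 2 of the 11 libraries were kept, 26053 of 68651 listed. Several contigs often share 1 Arabidopsis gene and may share reads, so the sum over all contigs of a gene was also tested. Values are not known to be per unit of length, so levels are compared between libraries and never between contigs. A contig or gene was called when its adjusted p was under 0.05 and its difference of log2(value + 1) at least 1 in size. That scale understates the change of low contigs.

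The 5 libraries were checked against tissue markers. The 147 photosynthesis contigs summed to 6836 in 0-A, 6890 in 0-B and 7153 in 1-A, all filed as leaf, and to 4189 in 1-B and 6097 in 1-C. In the 3 code L libraries, filed as nectary after secretion, the same sum was 56795 to 99950. The sums of the libraries filed as leaf thus lay far below those of code L, but above those of 1-B, 1-C and code 2 (3828 to 5124). SWEET9 summed over its contigs to 1.07 and 2.86 in the code 0 libraries and to 2343, 2037 and 3109 in 1-A, 1-B and 1-C. CRC summed to 1041 in 0-A and 1351 in 0-B, against 62.0, 126 and 63.2 in 1-A, 1-B and 1-C. SWEET9 and CRC therefore went with the codes, whereas the photosynthesis sums within these 5 libraries were ordered by filed tissue. Of 5 pollen and tapetum contigs 1 was called, lower in code 1, and of 10 vascular contigs 2 were, both lower. Those shares were 20% each against 12.2% of all contigs, and none of these calls stayed without any 1 library. The medians of the 2 lists were above 0, at 0.68 and 0.25. Of 2 pollen and tapetum gene sums 1 was higher and 1 lower, and no vascular sum was called.

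Across contigs, log2 values of 0-A and 0-B correlated at r = 0.945, those within code 1 at 0.930 to 0.967, and those between the codes at 0.522 to 0.551. In the comparison 6734 contigs were called, 25.8% of the 26053 tested. Of these 3551 (13.6%) were higher in code 1 and 3183 (12.2%) lower. With each of the 5 libraries left out in turn, 1607 (6.17%) stayed higher and 1559 (5.98%) stayed lower. The number called was 3955 without 0-A and 4041 without 0-B. Grouping the libraries by their filed tissue and stage instead set 1-B and 1-C against 0-A, 0-B and 1-A. It gave 0 calls by limma, with 3557 contigs at an unadjusted p under 0.05. In that grouping 1-A stood with 0-A and 0-B, with which it correlated at 0.544 and 0.541, and apart from 1-C, with which it correlated at 0.967. The libraries of the codes did not overlap in 16543 contigs (63.5%), so lack of overlap alone is common here. From summed contigs 2690 of 12123 genes (22.2%) were called, 1313 higher (10.8%) and 1377 lower (11.4%). At equal library totals the gene calls split into 1084 higher and 1720 lower. The median difference of all contigs was 0.10 as deposited and -0.05 at equal totals, which is the zero against which small differences should be read.

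**Figure D1:**
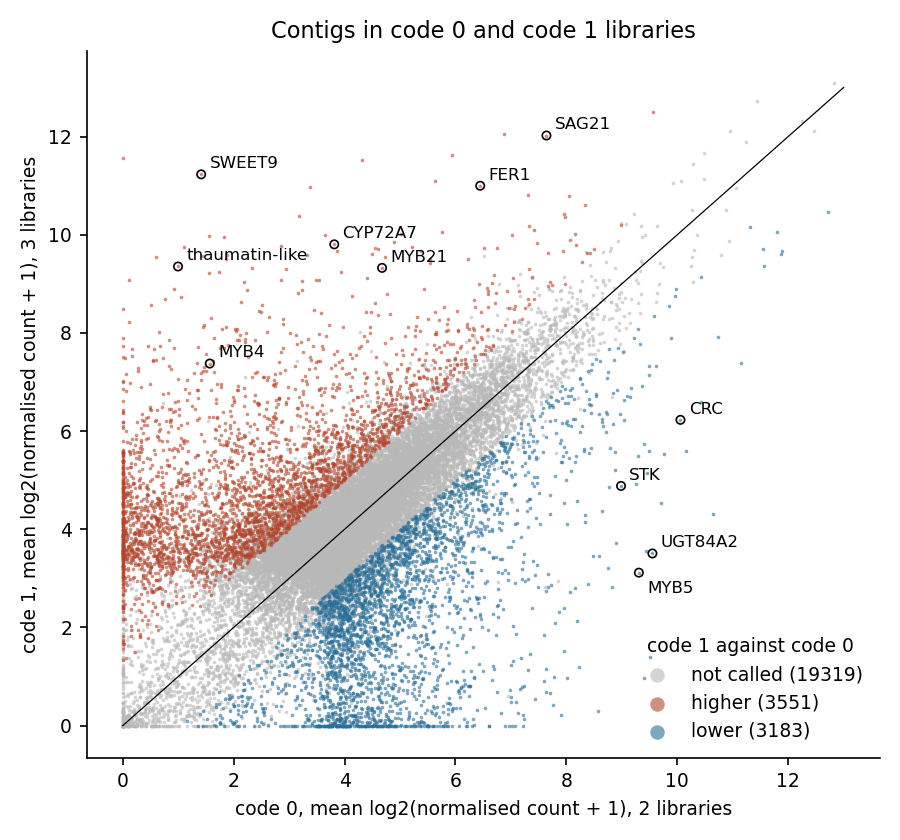
Mean log2(normalised count + 1) of each of 26053 contigs in the 2 code 0 libraries (x axis) and the 3 code 1 libraries (y axis), with contigs called higher (3551) or lower (3183) in colour, the line of equal values, and named contigs circled. SWEET9, thaumatin-like and MYB4 contigs lie near the left edge, and MYB5, UGT84A2 and STK contigs far to the right and low.

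Many differences were large. Among called contigs 1241 were higher and 923 lower by at least 3 on the log2 scale, and 36 were higher and 12 lower by at least 7. Some were listed at 0 throughout 1 code: 147 contigs at 0 in both code 0 libraries were at 10 or more in all 3 code 1 libraries, and 148 showed the opposite pattern. A value listed at 0 can be a failed estimate, so these are given as listed. Of the 147 contigs, 135 reached 10 in a code 2 library, and of the 148 opposite ones 72 did.

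Nectary regulators moved in opposite directions. The highest MYB21 contig, Mm414, was at 101 in 0-A and 7.51 in 0-B, and at 828, 1019 and 945 in 1-A, 1-B and 1-C. Both code 0 libraries lay below all code 1 libraries but stood far apart from each other, and the call was lost without 0-B. A second MYB21 contig, Mm2430, was at 60.1 and 9.71 in code 0 and at 523, 722 and 695 in code 1, a log2 difference of 4.65 (SE 0.79, adjusted p = 0.00145) that stayed called without any 1 library. The MYB24 contig Mm46278 rose likewise, from 7.04 and 1.01 to 70.6, 98.7 and 137 (4.63, SE 0.55, adjusted p = 0.00015). Its highest contig, Mm744, had 124 and 7.47 in code 0 and 928 to 1118 in code 1, and its call was also lost without 0-B. Of the 6 gene sums of the nectary regulator panel 2 were called higher, and neither stayed called without any 1 library.

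CRC ran the other way, with 932 and 1215 in code 0 against 58.4, 116 and 59.9 in code 1 for contig Mm734 (log2 difference -3.83, SE 0.81, adjusted p = 0.00507). The Mm734 call stayed without any 1 library but was lost when 0.1 rather than 1 was added before the log. All 4 CRC contigs that were called were lower in code 1. Another YABBY contig, Mm625, closest to AT2G26580, was at 487 and 512 in code 0 and between 74.4 and 89.0 in code 1 (-2.62, SE 0.31, adjusted p = 0.000141). Auxin response factor 8 (ARF8), which works with ARF6 in flower maturation in Arabidopsis, fell as a gene sum from 293 and 218 to 139, 89.5 and 112. The ARF8 sum had a log2 difference of -1.169 (adjusted p = 0.0177), and the call was lost without 0-A or 1-B. Its highest contig, Mm210020, was not called (-0.78), nor were those of ARF6 (-1.22) and BOP2 (-0.76), a cofactor of nectary formation in Arabidopsis.

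Over the whole panel of nectary regulators, 10 of 37 contigs from 6 genes rose and 8 fell. Their median difference of 0.01 changed sign at equal totals, to -0.12, so the panel had no common direction. Floral organ identity genes were split in the same way, with 10 of 47 contigs higher and 10 lower. SEEDSTICK (STK), an ovule identity factor in Arabidopsis, was at 394 and 649 in code 0 and at 19.3, 33.0 and 36.2 in code 1 (contig Mm94178, -4.10, SE 0.39, adjusted p = 4.52e-05). AGAMOUS (AG), which specifies stamens and carpels, held contigs of both directions. Contig Mm126296 fell from 347 and 545 to between 23.3 and 33.9, while Mm16898 rose from 43.8 and 29.9 to 195, 156 and 227. Summed over 7 contigs AG was lower in code 1, at 254, 232 and 298 against 598 and 742. The SHATTERPROOF2 (SHP2) contig Mm4644, of a carpel and fruit factor, was at 35.2 and 35.1 in code 0 and 116, 115 and 138 in code 1 (1.77, SE 0.30, adjusted p = 0.00154). Its gene sum also rose, but that call was lost without 0-A, 0-B, 1-B or 1-C.

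**Figure D2:**
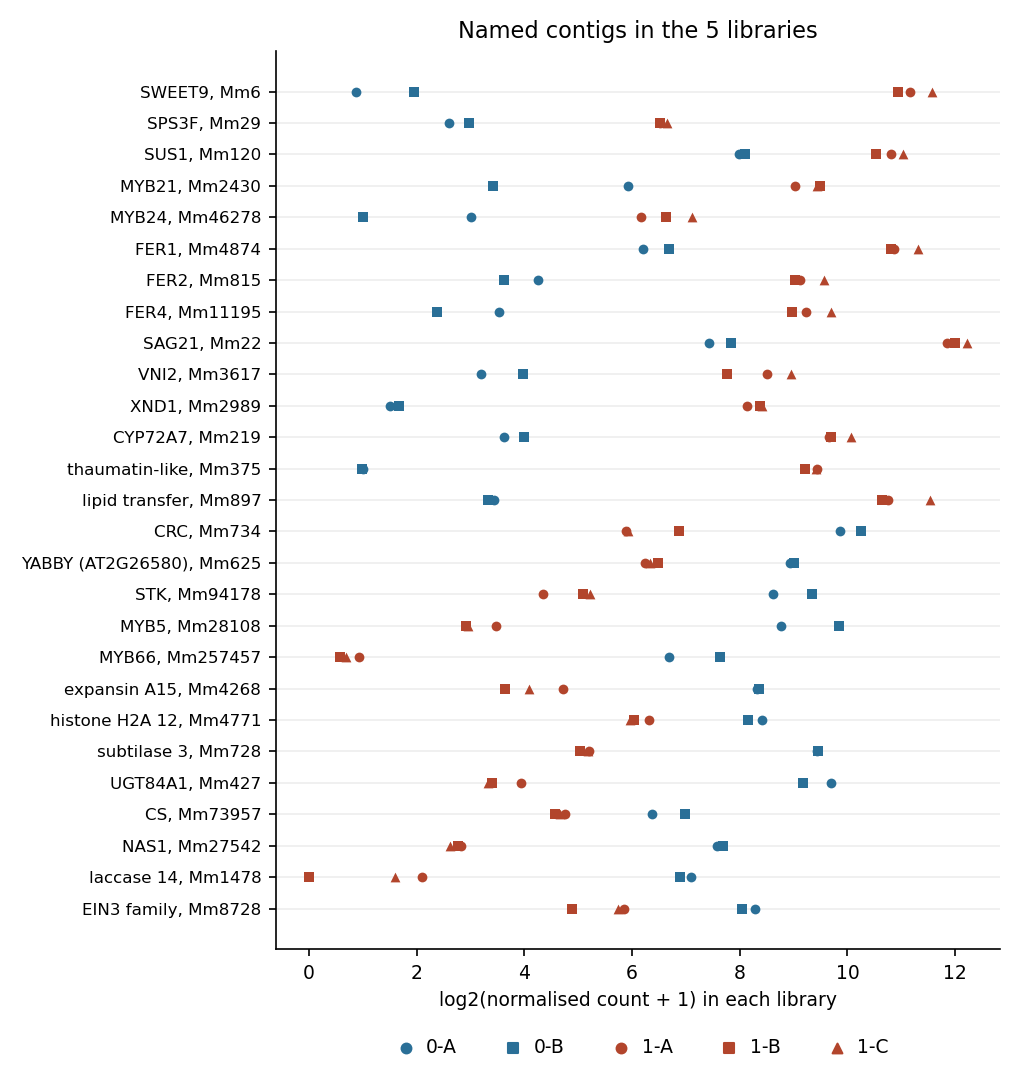
Log2(normalised count + 1) of 27 named contigs (rows) in the code 0 libraries (blue) and the code 1 libraries (red), with 1 marker shape per replicate letter. The upper 14 contigs are higher in code 1 and the lower 13 are lower, with no overlap of the codes in any row. MYB21 and MYB24 have the widest gap between 0-A and 0-B.

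Among genes of sugar export and sucrose metabolism more contigs rose than fell in code 1, and many were not called. In the panel of nectar secretion genes 21 of 46 contigs rose and 6 fell, and 18 and 3 stayed called without any 1 library. The share higher of 45.7% stands against 13.6% of all contigs, and the median difference was 0.98. SWEET9 contig Mm6 went from 0.840 and 2.86 to 2303, 1969 and 3049, and 4 smaller SWEET9 contigs were also called higher. SPS3F, a sucrose phosphate synthase, rose from 5.08 and 6.89 to 90.2, 90.3 and 99.99 (contig Mm29, 3.77, SE 0.44, adjusted p = 0.000142). Of the other sucrose phosphate synthases SPS1F (0.21) and SPS2F (0.64) were not called, and SPS4F (1.28, adjusted p = 0.0238) lost its call when 0-A, 0-B, 1-A or 1-C was left out.

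Sucrose synthases, which cleave sucrose reversibly, rose in several contigs. SUS1 contig Mm120 was at 252 and 275 in code 0 and at 1801, 1487 and 2094 in code 1 (2.75, SE 0.35, adjusted p = 0.00022). SUS4 contig Mm7 was at 413 and 252, and then at 1936, 965 and 1996 (2.26, SE 0.44, adjusted p = 0.00297). As gene sums SUS1 differed by 1.62 and SUS4 by 1.57, less than their leading contigs. SUS3 was not called (0.90). Contig Mm47749 of VIF1, an inhibitor of invertase, fell from 76.3 and 76.1 to 2.24, 7.90 and 3.96 (-3.88). Cell wall invertase 4 (CWINV4), needed for nectar in Arabidopsis, was at 58.2 and 38.3 in code 0 and at 0.203, 10.0 and 1.11 in code 1, a call that was lost without 0-A, 0-B, 1-A or 1-C.

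In the sugar transporter list, which includes SWEET9, 13 of 33 contigs were higher and 2 lower (median 0.94). The tonoplast monosaccharide transporter contig Mm44056 and the STP7 contig Mm10073, of a monosaccharide transporter at the cell surface, rose by 3.97 and 3.11 and stayed called without any 1 library. Contigs of SWEET2 (Mm178997, -2.39) and of the vacuolar importer TST2 (Mm290276, -2.99) fell. Starch enzymes leaned the other way, with 7 of 57 contigs higher and 14 lower (median -0.78). Beta-amylase 1 (BAM1), which breaks down starch in plastids, nevertheless rose from 108 and 84.3 to 494, 353 and 500.02 (contig Mm17, 2.21, SE 0.43, adjusted p = 0.00317). Contigs of ADP-glucose pyrophosphorylase, which feeds starch synthesis, fell for 3 subunits: APL1 (Mm12203, -1.81), APL4 (Mm25035, -4.39) and APS1 (Mm56940, -2.23).

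Vesicle traffic genes, which carry cargo to the cell surface, had few calls. Of 412 vesicle traffic contigs 28 rose and 15 fell, shares of 6.8% and 3.64% that lie below those of all contigs. The secretory Rab GTPase contig Mm2819, closest to RABA3, was among the risers, from 7.44 and 9.75 to 74.8, 137 and 120. Of 129 contigs of endoplasmic reticulum chaperones and protein export 6 rose (4.65%) and 17 fell (13.2%), with a median of 0.09. The share of falls was close to the 12.2% of all contigs, and that of rises lay below 13.6%. Calreticulin, a chaperone of the endoplasmic reticulum, fell in 2 genes, for example 241 and 280 against 62.1, 80.9 and 63.6 for contig Mm16525 (-1.91, SE 0.31, adjusted p = 0.0011). Water channels and proton pumps were mixed, with 27 of 127 contigs higher and 19 lower. The plasma membrane aquaporin contigs Mm17483 (PIP2;2 locus AT2G37170) and Mm48427 (AT3G53420) fell by 2.39 and 2.23, and Mm7492 (AT4G23400) rose by 1.62.

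Among genes of cell division more contigs fell than rose in code 1. Of 84 contigs for DNA replication and histones 40 fell and 6 rose, and 31 of those falls but none of the rises stayed called without any 1 library. The share lower of 47.6% stands against 12.2% of all contigs, and the median difference was -0.92. Histone H2A 12 was at 340 and 284 in code 0 and at 78.8, 64.6 and 61.6 in code 1 (contig Mm4771, -2.18, SE 0.26, adjusted p = 0.000147). A histone contig closest to AT4G40040, Mm26024, fell from 255 and 454 to 88.6, 96.7 and 93.1. In the cell cycle list 52 of 163 contigs fell, 13 rose and 98 were not called (median -0.47). As gene sums 25 of 85 cell cycle genes and 16 of 38 replication and histone genes were lower. The D-type cyclin contig Mm161094 fell from 73.7 and 114 to at most 0.603. One that rose was Mm10258, an SMR3-like inhibitor of cyclin-dependent kinases, with 2.49 and 5.12 in code 0 and 100.3, 99.5 and 114 in code 1 (4.51, SE 0.31, adjusted p = 1.05e-05).

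Among cytoskeleton and wall genes, too, falls outnumbered rises in most lists. Of 147 tubulin and actin contigs 40 fell and 6 rose (median -0.11), among them alpha-tubulin 2 (Mm78450) from 445 and 408 to 89.8, 77.7 and 75.5. An actin 7 contig, Mm998, went from 2.70 and 3.46 to 222, 296 and 297. Summed over contigs, none of the 31 tubulin and actin genes was called higher and 7 were called lower. Of 1063 ribosomal protein contigs 71 rose and 33 fell, both shares below the background (6.68% and 3.10%).

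Expansins, which loosen walls during growth, had the largest share of falls among the lists of at least 20 contigs. Of 23 contigs 13 (56.5%) were lower and 3 higher, with a median difference of -2.54. Expansin A15 contig Mm4268 was at 318 and 326 in code 0 and at 25.5, 11.6 and 15.9 in code 1 (-4.18, SE 0.34, adjusted p = 1.84e-05). Expansin A10 contig Mm2807 was at 291 and 295, and then at 28.0, 15.6 and 27.3 (-3.62). Smaller contigs of A15 (Mm7952, 4.19) and A10 (Mm256848, 2.52) rose, but as gene sums 7 of 10 expansins were lower and none higher.

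Cellulose, xylan and callose synthesis contigs fell in 46 of 133 cases and rose in 6 (median -0.85). The CESA3 contig Mm104402, of a cellulose synthase of growing walls, went from 165 and 78.5 to 15.7, 18.2 and 15.4. Arabinogalactan and fasciclin proteins, which sit on the cell surface, fell in 27 of 59 and rose in 4 (median -1.24). The fasciclin-like protein 2 contig Mm10988 went from 324 and 152 to 2.27, 9.18 and 1.37 (-5.70). Lipid transfer proteins fell in 18 of 37 contigs and rose in 4. Among those 4, contig Mm897 (AT4G33355) was at 9.88 and 8.97 in code 0 and at 1734, 1592 and 2977 in code 1 (7.60, SE 0.83, adjusted p = 9.35e-05).

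Xyloglucan transglycosylases were an exception within the wall group, while falls also outnumbered rises among pectin enzymes. Of 148 pectin contigs 41 fell (27.7%) and 23 rose (15.5%), against 12.2% and 13.6% of all contigs. As gene sums 21 of 70 were lower and 9 higher. The median over the pectin contigs, 0.10, was near 0 and changed sign at equal totals, to -0.01. Of 57 contigs described as pectin lyase-like 24 fell and 3 rose, with Mm7024 (AT3G61490) going from 202 and 437 to at most 3.03. Pectin methylesterases rose in Mm285 (AT2G45220), from 1.91 and 1.94 to 409, 857 and 604, and in Mm16 (AT1G23200), from 0.719 and 1.08 to 352, 595 and 517. Both are annotated as invertase or pectin methylesterase inhibitor superfamily members. Of 30 xyloglucan transglycosylase contigs, which cut and rejoin hemicellulose chains, 12 rose and 6 fell. XTH28 contig Mm1528 was listed at 0 in both code 0 libraries and at 213, 131 and 212 in code 1, and contig Mm1138 (AT4G25810) rose from 4.02 and 10.0 to 196, 273 and 161 (4.79).

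**Figure D3:**
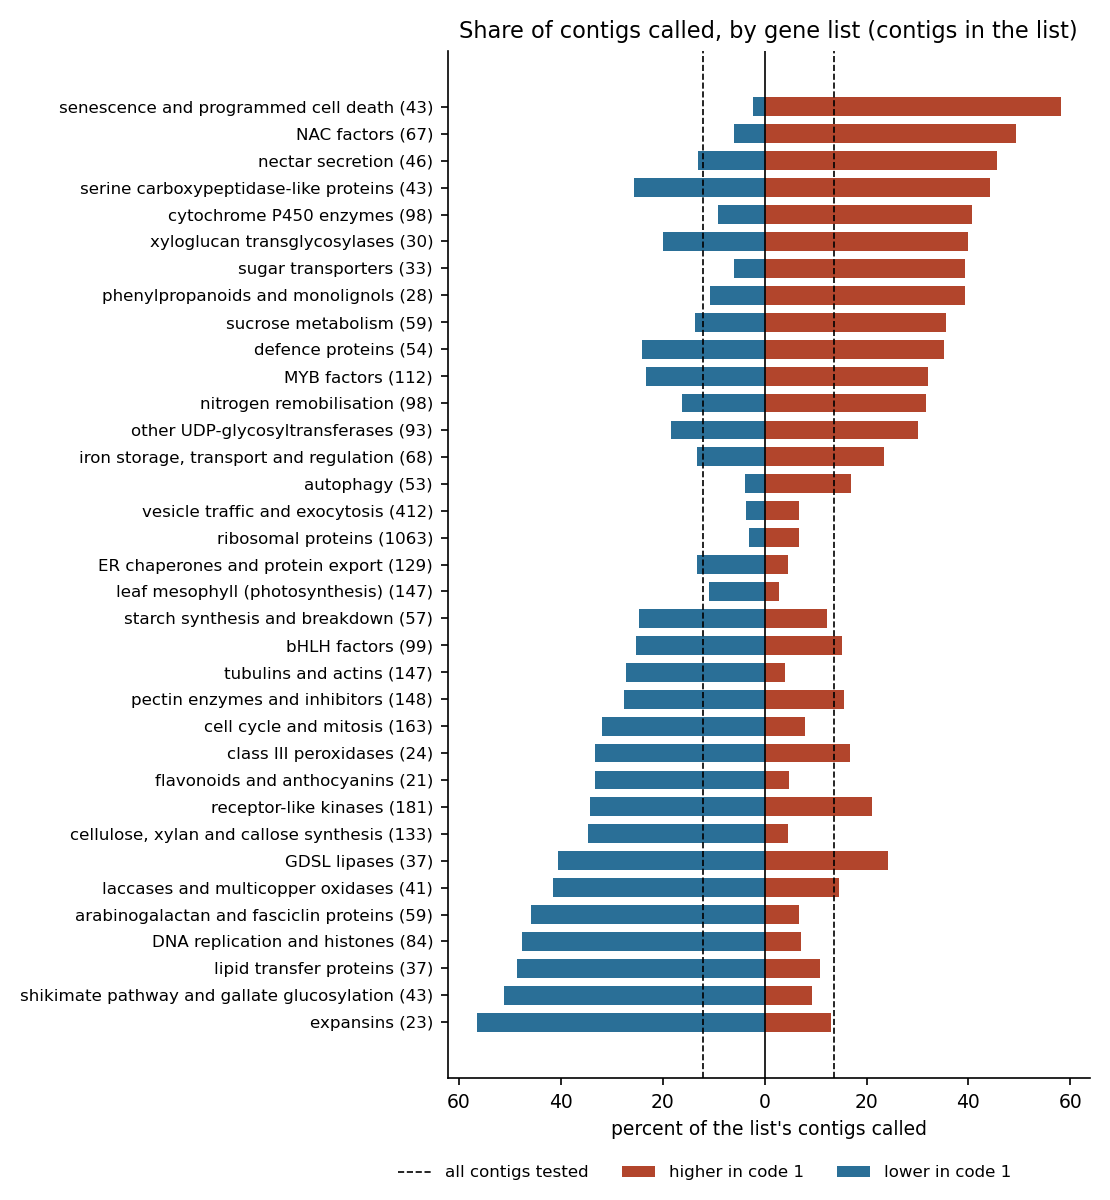
Percent of the contigs of 35 gene lists called higher (right, red) or lower (left, blue) in code 1, with the number of contigs in each list in brackets and dashed lines at the share of all contigs tested (13.6% higher, 12.2% lower). Senescence and NAC lists extend farthest to the right, and expansins and the shikimate panel farthest to the left.

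On the supply side of gallate falls outnumbered rises. Of 43 contigs of the shikimate and gallate glucosylation panel 22 fell and 4 rose, with a median difference of -2.02. Of the falls 10 stayed called without any 1 library. UGT84A1, which glucosylates phenolic acids in Arabidopsis, was at 833 and 581 in code 0 and at 14.4, 9.53 and 9.02 in code 1 (contig Mm427, -5.89, SE 1.16, adjusted p = 0.00336). Summed over 8 contigs it fell less, from 3108 and 2339 to 392, 289 and 324 (-3.02). Falls also reached the end of the pathway: a chorismate synthase (CS) contig, Mm73957, went from 81.4 and 126 to 26.1, 22.8 and 24.2 (-2.01, SE 0.39, adjusted p = 0.00312), and EPSPS2 contig Mm64820, of the step before it, from 23.7 and 19.7 to at most 2.37 (-3.49).

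Not every step moved. At the entry, DHS1 contig Mm1875 fell from 509 and 365 to 11.9, 7.59 and 6.30 but lost its call without 0-A, and DHS2 was not called (-2.18, adjusted p = 0.0712). DHS3 contig Mm34659 fell by 2.05, yet its gene sum did not pass the test (-0.27). Dehydroquinate synthase (DHQS) was not called (-0.56). Both shikimate kinases were higher, SK1 with 7.97 and 7.81 against 128, 47.9 and 109 and SK2 with 15.1 and 12.9 against 176, 62.1 and 170. In both, 1-B lay well below 1-A and 1-C, and both calls were lost without 0-A, 0-B, 1-A or 1-C.

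Other phenolic pathways were counted in the same way. Phenylpropanoid and monolignol contigs rose in 11 of 28 cases and fell in 3 (median 0.56), for example cinnamoyl-CoA reductase 1 (CCR1, Mm3283), which makes lignin precursors, from 18.2 and 20.6 to 181, 93.1 and 182. HCT (Mm18131, 2.73) and the C3H hydroxylase CYP98A (Mm3967, 2.95), which act in the middle of that pathway, rose too. Flavonoid and anthocyanin contigs fell in 7 of 21 and rose in 1 (median -0.99). Contig Mm7043 of TT8, a bHLH activator of this pathway in Arabidopsis, fell by 2.37. Other UDP-glycosyltransferases rose in 28 of 93 contigs and fell in 17. UGT74F2, which glucosylates salicylic acid in Arabidopsis, was at 2.81 and 4.70 in code 0 and at 264, 195 and 323 in code 1 (Mm2634, 5.78, SE 0.54, adjusted p = 3.81e-05).

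Serine carboxypeptidase-like proteins, some of which move acyl groups between phenolic glucose esters in plants, rose in 19 of 43 contigs and fell in 11. Contig Mm3812 (AT5G36180) was at 9.52 and 13.9 in code 0 and at 1169, 907 and 999.5 in code 1 (6.35, SE 0.95, adjusted p = 0.000651). Contig Mm3135 (AT1G33540) went the other way, from 265 and 146 to 1.45, 1.16 and 1.08 (-6.47, SE 1.04, adjusted p = 0.00106). Members of this family thus moved apart, and the list's median of 0.30 changed sign with the replicate block, to -0.09.

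Ferritin genes were higher in code 1, and 2 genes of iron movement lower. Ferritin contigs rose in 3 genes: FER1 (Mm4874) from 72.5 and 102 to 1868, 1804 and 2531 (4.55, SE 0.58), FER2 (Mm815) from 18.1 and 11.3 to 554, 519 and 761 (5.30, SE 0.48) and FER4 (Mm11195) from 10.6 and 4.17 to 601, 500.07 and 826 (6.35, SE 0.58). Their gene sums rose by 3.05, 4.29 and 2.26. Nicotianamine synthase 1 (NAS1), which makes a small chelator that carries iron, fell from 191 and 207 to 6.05, 5.83 and 5.18 (-4.90, SE 0.53, adjusted p = 8.44e-05). The transporter IRT3 fell from 88.5 and 104.95 to 12.2, 9.13 and 10.6 (Mm3374, -3.07), and from 135 and 167 to 54.6, 46.9 and 49.3 as a gene sum. A contig of FPN3, an exporter of the ferroportin family, rose from 1.96 and 0.249 to 16.4, 10.0 and 16.5 (Mm7065), but its gene sum was not called (0.68).

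Over the whole iron panel, with these genes included, 16 of 68 contigs from 22 genes rose and 9 fell. Those shares of 23.5% and 13.2% stand against 13.6% and 12.2% of all contigs. The highest contigs of the iron-responsive regulators ILR3 (-0.13), PYE (-0.63) and BTS (0.20) were not called. Neither were those of OPT3 (0.96), NRAMP2 (0.27), NRAMP3 (-0.87), FRO7 (-0.10), YSL5 (-0.47) and YSL6 (-0.16), which move or reduce metals. The YSL1 contig Mm285857, of a transporter of chelated iron, fell by 1.41 on the log2 scale, a call lost without 0-B.

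Enzymes that oxidise small molecules went in different directions by family. Cytochrome P450 contigs rose in 40 of 98 (40.8%) and fell in 9, with a median of 0.96. Of the CYP72A subfamily, Mm219 rose from 11.3 and 15.04 to 807, 826 and 1069 (5.99, SE 0.35, adjusted p = 5.74e-06) and Mm1200 from 3.92 and 5.58 to 349, 327 and 469 (6.05). A contig of CPD, which acts in brassinosteroid synthesis, fell from 109 and 105.09 to at most 1.50 (Mm167433, AT5G05690, -6.08). Laccases and other multicopper oxidases, which oxidise phenolics at the cell surface, fell in 17 of 41 contigs and rose in 6 (median -1.13). Laccase 14 (Mm1478) went from 135 and 118 to 3.27, 0 and 2.02 (-5.76, SE 0.90, adjusted p = 0.000856).

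Class III peroxidases, secreted enzymes that oxidise phenolics with peroxide, fell in 8 of 24 contigs and rose in 4. Among the falls was Mm161655 (AT2G22420), from 51.5 and 112 to between 2.32 and 3.57, while 2 other contigs of the same gene rose, Mm42317 by 3.29 and Mm68017 by 2.77. Glutathione S-transferases rose in 7 of 37 and fell in 2. In this family TAU 8 (Mm31745) was at 0.756 and 1.61 in code 0 and at 1108, 296 and 1970 in code 1, and TAU 20 (Mm281501) at 0.0620 and 0.915 against 464, 154 and 752. For both, 1-B was the lowest of code 1. The differences were 8.66 (SE 1.41) and 8.05 (SE 1.31), each with an adjusted p of 0.00113.

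Secreted defence proteins were mixed, 19 of 54 contigs higher and 13 lower. A thaumatin-like pathogenesis-related contig, Mm375 (AT1G20030), was at 1.01 and 0.987 in code 0 and at 691, 589 and 683 in code 1 (8.35, SE 0.43, adjusted p = 4.66e-06). A family 17 glucanase, Mm81 (AT5G55180), rose from 5.75 and 6.81 to 985, 652 and 1012 (6.90), whereas another, Mm26788 (AT2G05790), fell from 232 and 168 to at most 0.844 (-6.95). Among GDSL lipases, secreted esterases, 9 of 37 were higher and 15 lower. A potato inhibitor I type protease inhibitor, Mm785 (AT2G38870), rose from 61.8 and 38.1 to 2303, 1688 and 2664 (5.46, SE 0.56, adjusted p = 6.72e-05). Subtilisin-like protease 3 (Mm728, AT2G19170) fell from 692 and 701 to 35.7, 32.0 and 35.5 (-4.30, SE 0.42, adjusted p = 4.84e-05).

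The senescence and programmed cell death list had the largest share of rises among all 65 lists. Of 43 contigs from 19 genes 25 (58.1%) rose and 1 fell, with a median of 1.82, and 12 of the rises stayed called without any 1 library. SAG21, a small protein linked to senescence and stress in Arabidopsis, was at 172 and 229 in code 0 and at 3687, 4083 and 4764 in code 1 (Mm22, 4.38, SE 0.54, adjusted p = 0.000199). The NAC factor VNI2 went from 8.14 and 14.7 to 363, 216 and 492 (Mm3617, 4.82, SE 0.47). ORS1, a NAC factor that promotes leaf senescence in Arabidopsis, rose by 4.85 (Mm101531), and CEP1, a protease of programmed cell death, by 4.19 (Mm148255). VNI2 is known as a brake on senescence, so members of unlike roles are counted together here.

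Chlorophyll breakdown genes of that list rose less firmly. Contigs of NYC1 (Mm30547, 1.72), NYE1 (Mm21864, 2.097), PPH (Mm18500, 2.03) and PAO (Mm17843, 2.39) were called higher, but each call was lost without at least 1 library. RCCR (Mm105591), the next enzyme of that pathway, was the 1 contig that fell (-1.11), and its call was lost without any of the 5 libraries. Autophagy contigs, in comparison, rose in 9 of 53 cases (17%) and fell in 2, close to the background for rises, with ATG8C contig Mm9451 at 14.5 and 16.4 against 76.8, 59.0 and 72.2. Nitrogen remobilisation rose in 31 of 98 contigs and fell in 16. ASN1, an asparagine synthetase used in nitrogen transport, went from 19.7 and 22.3 to 371, 179 and 249.7 (Mm135597, 3.54, SE 0.52, adjusted p = 0.000591).

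NAC factors rose in 33 of 67 contigs (49.3%) and fell in 4, with a median of 1.33. Summed by gene, 16 of 31 rose and 1 fell. XND1, a NAC factor that restrains xylem differentiation in Arabidopsis, was at 1.84 and 2.19 in code 0 and at 279, 331 and 342 in code 1 (Mm2989, 6.72, SE 0.50, adjusted p = 1.33e-05). MYB factors moved both ways, 36 of 112 higher and 26 lower. MYB4, a repressor of phenylpropanoid genes in Arabidopsis, rose from 1.695 and 2.27 to 158, 177 and 160 (Mm3434, 5.81, SE 0.26, adjusted p = 1.95e-06). MYB5 and MYB66, which act in epidermal cell fate in Arabidopsis, fell: Mm28108 from 435 and 919 to 10.1, 6.56 and 6.797 (-6.19) and Mm257457 from 103 and 197 to at most 0.918 (-6.42).

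Factors of the bHLH family leaned lower, with 25 of 99 contigs falling and 15 rising, and as gene sums 14 of 45 fell and none rose. Within it FAMA, which completes guard cells, went from 34.6 and 75.9 to at most 0.370 (Mm248379, -5.54, SE 0.41, adjusted p = 1.32e-05). TMM, a receptor-like protein of stomatal patterning, rose from 0.428 and 1.07 to 44.1, 139 and 64.1 (Mm22137, 5.43, SE 0.66). WRKY contigs rose in 16 of 57 and fell in 7, and AP2/ERF contigs in 19 and 10 of 87. WRKY40, a factor of stress and defence responses, was at 14.2 and 21.9 and then at 99.9, 103 and 105.3 (Mm1056, 2.48).

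Hormone lists were divided. Jasmonate contigs rose in 19 of 86 and fell in 26, and only 2 of 27 gene sums rose and 5 fell. None of the 5 lower sums stayed called without any 1 library. JAR1, which makes the active jasmonate conjugate, was at 5.03 and 6.31 in code 0 and at 102, 172 and 127 in code 1 (Mm935, 4.31, SE 0.40, adjusted p = 3.82e-05). The lipoxygenases LOX2 and LOX3 held contigs of both directions. LOX2 contig Mm2881 fell from 1033 and 670 to 40.8, 11.9 and 22.5, while Mm13 rose from 1.85 and 1.59 to 267, 248 and 321. The LOX2 sum was lower (-1.49, adjusted p = 0.0441), and the LOX3 sum was not called (-0.92). Auxin contigs rose in 40 and fell in 36 of 186. The repressor IAA14 (Mm995) rose from 14.4 and 27.2 to 301, 307 and 432, while the auxin receptor AFB2 (Mm164615) fell from 85.8 and 104 to 20.9, 16.5 and 23.9 (-2.17). Gibberellin contigs rose in 7 and fell in 13 of 39. A gibberellin 2-oxidase, an enzyme that inactivates the hormone, rose from 13.1 and 10.3 to 205, 430 and 167 (Mm4297, 4.28, SE 0.67). Ethylene contigs rose in 2 and fell in 3 of 26, shares of 7.69% and 11.5% against 13.6% and 12.2% of all contigs. None of the 6 gene sums of the ethylene list was called lower. A contig of EIN3, the central factor of ethylene response, fell from 312 and 263 to 56.8, 28.5 and 52.2 (Mm8728, -2.68, SE 0.46, adjusted p = 0.00161).

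Receptor-like kinases fell in 62 of 181 contigs and rose in 38. Among 120 families defined only by a shared description, the histone superfamily had the largest share of falls, 25 of 47 contigs (53.2%), followed by lipid transfer proteins (52.9% of 34) and GDSL lipases (46.4% of 28). The HXXXD acyltransferases, which attach acyl groups to alcohols and sugars, fell in 11 of 26 and rose in 2. The largest share of rises, 12 of 30 (40%), was in the invertase and pectin methylesterase inhibitor superfamily. Cysteine proteinases (37.5% of 24) and galactose oxidase or kelch repeat proteins (35.9% of 64) came next. These families were picked by their shares and carry no test.

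Contigs of 1 gene could move apart. In 390 genes at least 1 contig was called higher and another lower. In 19 of them both calls stayed without any 1 library, both pairs of groups did not overlap and both contigs reached a mean of 50 in their higher code. Of these 19 the gene sum was higher in 4, lower in 3 and not called in 12. Glyoxalase AT1G80160 held Mm294, which rose by 8.42 to 856, 969 and 1242 in code 1, and Mm303612, which fell by 5.19, and its sum rose by 2.91. Adenosylmethionine decarboxylase AT3G25570, an enzyme of polyamine synthesis, had its main contig Mm20 at 2411 and 2150 in code 0 and fell by 2.37 as a sum. For AT5G19140 the contig Mm131172 was listed at 0 in code 0 and at 103, 62.6 and 97.3 in code 1, the contig Mm240201 went from 104 and 218 to at most 0.311, and the sum differed by -0.16. Glutamine synthetase GLN1;2, which assimilates ammonium, rose as a sum from 663 and 701 to 3290, 4170 and 3575 although its contig Mm236418 was listed at 0 in all code 1 libraries. That call of the sum was lost without 0-A or 0-B. Whether such contigs are gene copies, alleles or assembly fragments was not tested.

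**Figure D4:**
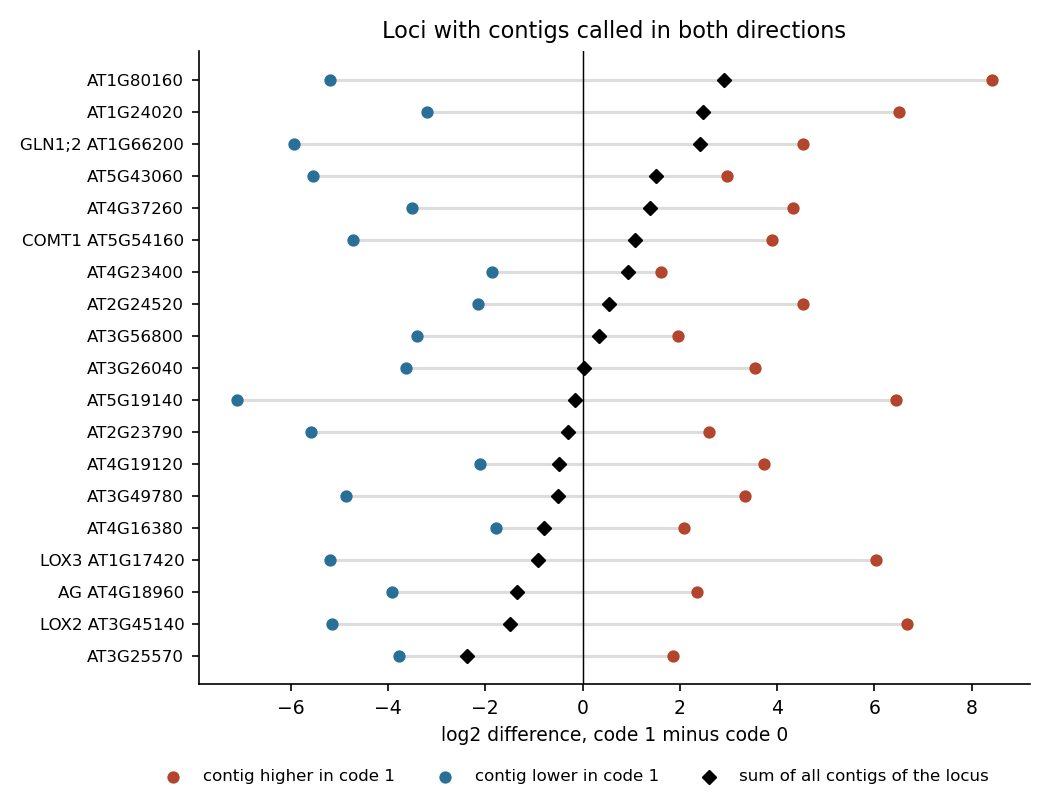
Log2 difference (code 1 minus code 0) of the contig called higher (red), the contig called lower (blue) and the sum of all contigs (black diamond) for 19 closest Arabidopsis genes with such a pair. Both contigs of a pair stayed called without any 1 library, had no overlap of the codes and reached a mean of 50 in their higher code. The sums lie between the contigs, from -2.37 for AT3G25570 to 2.91 for AT1G80160.

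Within code 1 the 3 libraries were not equally far from code 0. Library 1-B was the lowest of the 3 in 2163 of the 3551 contigs called higher, 1-A in 968 and 1-C in 420. Library totals had the same order, with 1001565 in 1-B, 1097345 in 1-A and 1168305 in 1-C, and their part in these counts was not tested. In 53 of them 1-A and 1-C were both at least 4 times 1-B, and in 3 1-B was at least 4 times both. Several of the 53 were genes known to respond to low oxygen in Arabidopsis, so a list of 31 such genes was made after these values were seen and is described without a test. It had 78 contigs from 22 genes, of which 42 were called higher (53.8%) and 4 lower (5.13%), against 13.6% and 12.2% of all contigs. Of the rises 17 stayed called without any 1 library. Contigs already called higher prompted the list, so neither its share of rises nor its overlap with the 53 is an independent result. Left without the sucrose synthases SUS1 and SUS4, which are in it, the list had 28 higher and 2 lower of 54 contigs.

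Of the 53 contigs 15, from 10 genes, were in that list. For pyruvate decarboxylase 1 (PDC1), which starts alcoholic fermentation, contig Mm14880 was listed at 0 in both code 0 libraries and at 379, 69.3 and 503 in 1-A, 1-B and 1-C. Other PDC1 contigs were present in code 0: Mm1910 (75.6 and 86.6) and Mm349 (34.1 and 24.3) were not called, and Mm264735 fell from 41.9 and 56.3 to at most 0.473. Summed over its contigs PDC1 (AT4G33070) went from 154 and 172 to 799, 212 and 1071, and that rise passed with all libraries but needed each of 0-A, 0-B, 1-A and 1-C. The related PDC2 (AT5G54960) was not called as a sum (0.02) and held contigs of both directions. Its contig Mm14272, among the 53, rose from 22.7 and 10.2 to 259, 39.1 and 277 (3.13), a call lost without 0-B. Its contig Mm158108 went from 126 and 172 to a listed 0 in all of code 1, and Mm21220 was not called (-0.36). HRE2, an ethylene response factor of hypoxia, was at 0.352 and 0.982 and then at 174, 11.96 and 314 (Mm186585). PCO2, a plant cysteine oxidase that senses oxygen, was at 1.24 and 1.35 and then at 70.6, 4.05 and 97.2 (Mm119115). In the contigs Mm14880, Mm186585 and Mm119115, 1-A and 1-C were high and 1-B lay between them and code 0. The calls of HRE2 and PCO2 were lost without 0-A or 0-B, and that of PCO2 also without 1-A or 1-C. For haemoglobin 1 (HB1) 1-B was the highest in contig Mm211954, at 33.0 against 15.4 and 12.7, but the lowest in Mm269061, which was not called. Of the LBD41 contigs, of a low-oxygen factor, Mm113423 was not called (2.35, adjusted p = 0.0741) and Mm11025 rose from 18.4 and 18.7 to 76.1, 33.1 and 90.7 (1.67, adjusted p = 0.0196), which again needed each library other than 1-B. An alcohol dehydrogenase contig, Mm1862, rose from 90.4 and 99.8 to 422, 194 and 613 (1.94). Of the 9 alcohol dehydrogenase contigs (ADH1) 4 were called higher and none lower.

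The mean of log2(value + 1) over the 78 contigs was 3.60 and 3.70 in 0-A and 0-B, 5.62 in 1-A, 4.46 in 1-B and 5.81 in 1-C. In code 2 it was 3.68, 3.84 and 4.79, and in code L 1.87 to 2.07. The order within code 1 does not follow the filed tissue, since 1-B and 1-C share a label and 1-A has another. Single glycolytic contigs showed a like order, such as GAPC2 (Mm1300) at 1222, 337 and 1438 and enolase (Mm3437) at 76.5, 19.01 and 122. Over all 410 contigs of glycolysis, the citric acid cycle and respiration the means in 1-A, 1-B and 1-C were closer, at 5.05, 4.73 and 5.08. Of these contigs 12.9% rose and 5.37% fell, against 13.6% and 12.2% of all contigs. The part of the order within code 1 in the calls for SUS4, SK1, SK2 and the TAU transferases, in which 1-B is also lowest, was not tested.

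**Figure D5:**
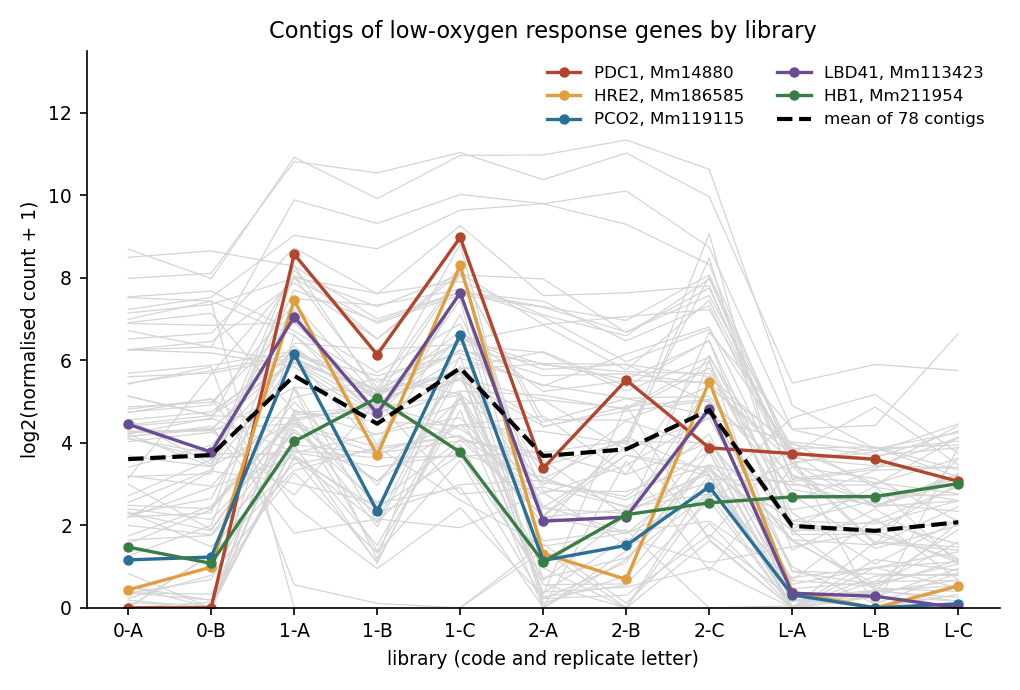
Log2(normalised count + 1) of 78 contigs of low-oxygen response genes in the 11 libraries, with 5 named contigs in colour and the mean as a dashed line. The mean is 5.62 in 1-A and 5.81 in 1-C but 4.46 in 1-B, and 3.60 and 3.70 in the code 0 libraries.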

How the data were processed

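Total RNA of 11 libraries was sequenced as paired reads on a NovaSeq instrument, per the labels. The deposited values are normalised read counts, a signal per contig that is not whole and whose totals differ between libraries. The submitters' processing notes name kallisto 0.46.1, and no label says how the authors normalised the counts, so sequencing depth is unknown and no counting interval is given. Totals of the deposited values were 942092 to 1168305 in the 5 libraries compared.

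From there, log2(value + 1) of the 26053 contigs at 10 or more in at least 2 libraries was fitted in limma 3.58.1 (R 4.3.3) with 1 mean per library code over all 11 libraries and a trended variance, and the code 1 mean was compared with the code 0 mean, two-sided, with Benjamini-Hochberg adjustment over all contigs. Sums over contigs of 1 closest Arabidopsis gene were tested the same way. The steps were tested on simulated data.

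The library codes, lists and description patterns were chosen with earlier results of these data known. Contigs were named by a rule: up to 2 per list and direction that stayed called without any 1 library, did not overlap and reached a mean of 50, the contig with the highest mean for each gene of the panels, and the 10 largest rises and falls. Further contigs were picked after their values were seen: those of chlorophyll breakdown, ORS1, CEP1, the low-oxygen genes, enolase, ADP-glucose pyrophosphorylase, TT8, HCT, CYP98A, SWEET2, TST2, STP7, the tonoplast transporter, the smaller expansin and peroxidase contigs, and pairs within 1 gene. Alternatives tried were other scalings, pseudocounts, filters, library weights, the groups as filed, a replicate block and each library left out.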

Additional observations from a re-analysis of the deposited data

How the results depend on the processing

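The number of calls depended most on the filter, the grouping and the code 0 libraries, and the cause was not tested. The 6734 contigs called became 13187 with no filter (6299 higher, 6888 lower), where more contigs are tested, and 2071 with a filter of 50 (1232 higher, 839 lower), where fewer are. As shares of the contigs tested these were 25.8% of 26053, 19.2% of 68650 and 30.4% of 6818, so the share moved opposite to the count. Gene sums with the filter of 50 gave 1419 calls (795 higher, 624 lower), 24.1% of 5876 genes. Grouping by the filed labels, which sets 1-A with 0-A and 0-B against 1-B and 1-C, is another comparison than that of the codes. It gave 0 contigs and 0 genes, higher or lower, with 3557 contigs and 1676 genes at an unadjusted p under 0.05 in limma. With 1 library left out, contigs called ranged from 3955 to 5954 (1931 to 3334 higher, 1821 to 2722 lower) and genes from 1734 to 2474 (729 to 1301 higher, 859 to 1268 lower). A lone code 0 library was then assumed to vary like the other codes.

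At equal totals 3004 contigs were higher and 3899 lower, against 3551 and 3183 as deposited. Of 207 named contigs none reversed under the alternatives run. Under the filed grouping 184 lost their call. The replicate block gave 6742 contigs and 2793 genes and changed 1 named call, NRAMP3 (Mm4050), which passed. The letters were not taken as pairs in the main fit. Deviations of same-letter libraries correlated at r of 0.074 and 0.065, with 2 shared letters. With 2 code 0 libraries the deviations of 0-A and 0-B mirror each other, so these values cannot show whether letters are pairs. Depth is unknown, so precision rests on 2 and 3 libraries.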

Other observations

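The code 0 libraries differed from each other in a few of the contigs with the largest rises, a set picked after the values were seen. Of the 1241 contigs called higher by at least 3 on the log2 scale, 11 contigs of 9 genes had 0-A at 10 or more and at least 4 times 0-B, and 5 showed the opposite. In all 11, each code 1 library was above 0-A. The MYB21 and MYB24 contigs Mm414 and Mm744 are among them. Their values in code 2 were 1029 to 1552 for Mm414 and 1202 to 1881 for Mm744, and in code L at most 17.5 and 14.6.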
